A study of Homo sapiens with 4 samples.

Results

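The NRF2 antioxidant genes described here are 9 genes of 58735 in the deposited count table. They were chosen by name, with earlier results of these data known, and matched to the table by Ensembl identifier. They are the regulator NFE2L2 and 8 of its textbook targets, HMOX1, NQO1, GCLC, GCLM, TXNRD1, SRXN1, SLC7A11 and OSGIN1. RNA was sequenced from MDA-MB-231 and SUM159, established human lines of triple-negative breast cancer (TNBC), after 72 h with 1 μM mebendazole (MBZ), an anthelmintic drug that disrupts tubulin, or after 72 h with its solvent DMSO. The MDA-MB-231 cells came from a cell repository and the SUM159 cells from another laboratory. There was 1 library for each line and treatment, 4 in all, and the comparison asked which genes MBZ changed in each line.

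NRF2, the protein of NFE2L2, is a transcription factor that KEAP1 holds in the cytoplasm and passes to a CUL3 ubiquitin ligase for degradation. Oxidants and electrophiles modify KEAP1, NRF2 then accumulates, enters the nucleus, pairs with a small MAF protein and binds antioxidant response elements (AREs) in the DNA of its targets, while BACH1 competes for the same elements as a repressor. The targets make glutathione, recycle thioredoxin and peroxiredoxin, and detoxify quinones and heme, and because NRF2 is controlled largely through protein stability, the mRNA of NFE2L2 is not a measure of its activity.

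The ARE core, TGACNNNGC, was searched on both strands of the RefSeq promoter windows (GRCh38.p14), which run from 250 bases before to 50 bases after a gene's start. Of the 9 genes, 7 had a window and 2 of these, GCLM and TXNRD1, held the core, at 4 sites. Over all genes with a window 16.1% of 27305 held it, as did 13.3% of the 35116 windows. Of the wider lists described further on, ATF4 and its targets among them, 22 of 82 genes (26.8%) held it. The 4 sites are shown because they carry the letters of the element that NRF2 is known to bind, with the core in capitals, read on the strand where it has this form, and with positions counted from the start at 0. GCLM, plus strand of chr1:93909445-93909474, with the core at -34 to -26, reads
GCLM: ctggaagacaaTGACTAAGCagaaatcgta
TXNRD1 has sites on the plus strand of chr12:104215670-104215699 (-99 to -91), on the minus strand of chr12:104215761-104215790 (-8 to 0) and, at its downstream start, on the minus strand of chr12:104286920-104286949 (-102 to -94), which read in this order
TXNRD1: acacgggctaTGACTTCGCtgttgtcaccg
TXNRD1: cctgtgggaacTGACGGAGCcgaaggacgc
TXNRD1: cagagtcagaaTGACAAAGCagaaatccac
The GCLM core and that of the downstream TXNRD1 start are both followed by the letters agaaat. A match is a description of the letters and not a bound site, and no match says only that the letters are absent from this window.

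The libraries held 17143139 to 24897586 counts. Levels are given in CPM (counts scaled to library size by the TMM factors of the 2 libraries of a line), so a level compares treatments within a line. Changes are log2 fold changes of MBZ over DMSO with a 95% counting interval (Clopper-Pearson), which covers counting error only. With 1 library per condition no change within a line had a replicate check. A count of 0 allows 0.120 to 0.175 CPM, and none of the 9 genes was near it. The libraries were made from bulk RNA, in which fewer cells of a kind and less RNA per cell cannot be told apart. Of the markers that should be low in TNBC, ESR1 had at most 18 counts and PGR had 0 in every library, while ERBB2 had 1216 to 1996 counts. VIM and CD44, markers of mesenchymal cells, had at least 7435 counts. The epithelial keratin KRT18 had 4197 to 10874 counts, and EPCAM had 144 and 190 in MDA-MB-231 and 6 and 9 in SUM159. The summed level of 5 markers of other cell types was 34.6 and 39.5 CPM in MDA-MB-231 and 62.2 and 91.9 CPM in SUM159 (DMSO and MBZ), with PECAM1 at 328 to 825 counts and CD3E and ALB at no more than 2. In SUM159, COL17A1, a keratinocyte marker of that list, had 176 counts with DMSO and 1042 after MBZ, and the leukocyte marker PTPRC had 216 and 60. Their part in the results was not tested.

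In MDA-MB-231 cells, 6 of the 9 genes (HMOX1, GCLC, GCLM, TXNRD1, SLC7A11 and OSGIN1) were at least 1.5-fold higher after MBZ and 0 were at least 1.5-fold lower. Among all 15142 genes compared (mean of both libraries not under 10 counts) 18.3% were higher by this measure and 15.8% were lower. In SUM159 cells 3 of the 9 (HMOX1, SRXN1 and OSGIN1) were at least 1.5-fold higher and 1 (TXNRD1) was at least 1.5-fold lower, against 21.5% and 21.7% of 15674 genes. The median log2 change of the 9 genes was 0.93 in MDA-MB-231 and 0.44 in SUM159, and that of all genes was -0.018 and -0.034. HMOX1 and OSGIN1 were the 2 of the 9 that were higher in both lines, against 6.12% of the 13733 genes compared in both, and TXNRD1 was the 1 that moved in opposite directions, against 6.04%. Scaling by total counts alone shifted the median of all genes up by 0.27 in MDA-MB-231 and 0.30 in SUM159, and the counts of the 9 genes then became 7 higher and 0 lower in MDA-MB-231, against 29.1% and 7.57% of all genes. In SUM159 they became 6 higher and 1 lower, against 32.8% and 12.8%. At 2-fold, MDA-MB-231 had 3 of the 9 higher and 0 lower, against 9.05% and 5.14% of all genes, and SUM159 had 1 higher and 1 lower, against 12.7% and 10.7%. A counting interval wholly past 1.5-fold was held in MDA-MB-231 by 6 higher and 0 lower genes of the 9, against 7.64% and 8.04% of all genes, and in SUM159 by 1 higher and 1 lower, against 11.0% and 12.7%.

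**Figure D1:**
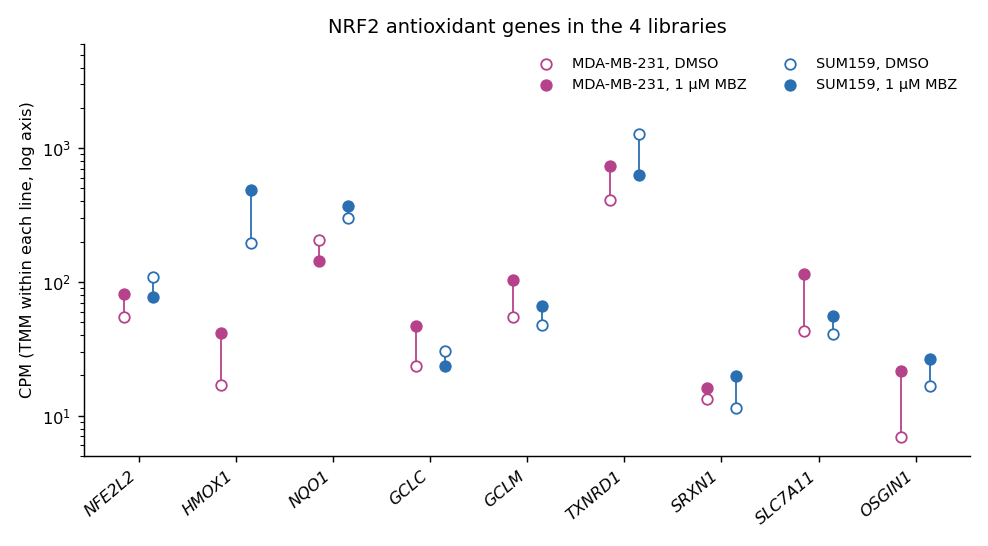
Level of each of the 9 genes in CPM (log axis) in the 4 libraries, with open points for DMSO, filled points for MBZ and a line joining the 2 libraries of a cell line. HMOX1 went from 17.0 to 41.5 CPM in MDA-MB-231 and from 194 to 483 CPM in SUM159, and TXNRD1 was higher with MBZ than with DMSO in MDA-MB-231 and lower in SUM159.

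NFE2L2 (ENSG00000116044, chromosome 2 from 177218667 to 177392756, minus strand, 5 exons of the canonical transcript) encodes NRF2 itself. It had 1251 counts (55.1 CPM) with DMSO and 1526 counts (81.2 CPM) with MBZ in MDA-MB-231, and 1829 counts (108.5 CPM) and 1608 counts (76.6 CPM) in SUM159. The log2 change was 0.56 (interval 0.45 to 0.67) in MDA-MB-231 and -0.50 (interval -0.60 to -0.40) in SUM159. The transcript of the regulator was therefore higher after MBZ in one line and lower in the other, by less than 1.5-fold each. With total counts its log2 change in MDA-MB-231 was 0.82, which is past 1.5-fold. With DMSO its level was 2.05-fold higher in SUM159 than in MDA-MB-231 when the 4 libraries were scaled together, and with MBZ the log2 difference of MDA-MB-231 over SUM159 was 0.042 (interval -0.060 to 0.14). The exons of NFE2L2 share 3710 bases with genes on the opposite strand and 2037 bases with genes on its own strand, AGPS and HNRNPA3 among them, and whether counting used the strand is not given in the sources used here.

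KEAP1, the inhibitor of NRF2, had a log2 change of -0.16 in MDA-MB-231 and -0.56 in SUM159. The ratio of NFE2L2 counts to KEAP1 counts, in which library scaling cancels, went from 0.358 to 0.591 in MDA-MB-231 and from 0.720 to 0.749 in SUM159. On the log2 scale this was a change of 0.72 (interval 0.59 to 0.85) in MDA-MB-231 and of 0.056 (interval -0.071 to 0.18) in SUM159, the latter not distinguishable from 0 at this depth.

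SLC7A11 (ENSG00000151012, chromosome 4 from 138164097 to 138242349, minus strand, 12 exons) encodes the cystine importer xCT, which brings in the cystine for glutathione. It went from 978 counts (43.1 CPM) to 2139 counts (113.8 CPM) in MDA-MB-231 and from 687 counts (40.8 CPM) to 1163 counts (55.4 CPM) in SUM159. The log2 change was 1.40 (interval 1.29 to 1.51) and 0.44 (interval 0.31 to 0.58). The lines did not differ detectably in its level with DMSO (log2 difference 0.021, interval -0.12 to 0.16), while with MBZ the log2 difference of MDA-MB-231 over SUM159 was 1.00 (interval 0.89 to 1.10). Its antisense gene SLC7A11-AS1, which shares 865 exonic bases, had 4 to 28 counts.

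SLC3A2, the heavy chain that carries xCT to the membrane, had 4765 and 13223 counts in MDA-MB-231 (DMSO and MBZ, log2 change 1.74), and 3497 and 7254 counts in SUM159 (log2 change 0.74). The ratio of SLC7A11 to SLC3A2 counts went from 0.205 to 0.162 in MDA-MB-231 and from 0.196 to 0.160 in SUM159. Both chains were thus higher after MBZ in each line, the heavy chain by more, with log2 changes of the ratio of -0.34 (interval -0.46 to -0.22) and -0.29 (interval -0.44 to -0.15).

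GCLC and GCLM encode the catalytic and modifier subunits of glutamate-cysteine ligase, the rate-limiting enzyme of glutathione synthesis. GCLC (ENSG00000001084, chromosome 6 from 53497341 to 53616970, minus strand, 16 exons) had 538 counts (23.7 CPM) and 882 counts (46.9 CPM) in MDA-MB-231 with DMSO and MBZ, and 509 counts (30.2 CPM) and 493 counts (23.5 CPM) in SUM159. Its log2 change was 0.99 (interval 0.83 to 1.14) in MDA-MB-231 and -0.36 (interval -0.54 to -0.18) in SUM159, so the catalytic subunit was higher after MBZ in MDA-MB-231 and slightly lower in SUM159.

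GCLM (ENSG00000023909, chromosome 1 from 93885199 to 93909456, minus strand, 7 exons), which holds the first of the promoter sites shown, had 1231 counts (54.2 CPM) and 1945 counts (103.5 CPM) in MDA-MB-231, and 796 counts (47.2 CPM) and 1391 counts (66.3 CPM) in SUM159. Its log2 change was 0.93 (interval 0.83 to 1.04) in MDA-MB-231 and 0.49 (interval 0.36 to 0.62) in SUM159. The subunits moved alike in MDA-MB-231, where the ratio of GCLM to GCLC counts was 2.29 with DMSO and 2.21 with MBZ, a log2 change of -0.053 (interval -0.24 to 0.13). In SUM159 the ratio went from 1.56 to 2.82, a log2 change of 0.85 (interval 0.63 to 1.07).

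TXNRD1 (ENSG00000198431, chromosome 12 from 104215779 to 104350307, plus strand, 17 exons) encodes the cytosolic reductase that returns thioredoxin to its reduced form with NADPH. It had 9350 counts (412 CPM) with DMSO and 13908 counts (740 CPM) with MBZ in MDA-MB-231, and 21480 counts (1275 CPM) and 13110 counts (625 CPM) in SUM159. Its log2 change was 0.85 (interval 0.81 to 0.88) in MDA-MB-231 and -1.03 (interval -1.06 to -0.997) in SUM159, the lowest of the 9 genes there. With DMSO it was 3.22-fold higher in SUM159 than in MDA-MB-231, and with MBZ the order turned, with a log2 difference of MDA-MB-231 over SUM159 of 0.20 (interval 0.17 to 0.24). Counts are of the whole gene, so reads from its separate starts are pooled here.

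TXN, the thioredoxin that TXNRD1 reduces, was higher after MBZ in both lines, with log2 changes of 0.60 and 0.73. The ratio of TXNRD1 to TXN counts therefore went from 1.55 to 1.83 in MDA-MB-231 and from 8.50 to 2.52 in SUM159. TXN was chosen as the partner of TXNRD1 and not by its change.

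SRXN1 (ENSG00000271303, chromosome 20 from 646615 to 653200, minus strand, 2 exons) encodes sulfiredoxin, which repairs overoxidized peroxiredoxins. It had 305 counts (13.4 CPM) and 304 counts (16.2 CPM) in MDA-MB-231, and 192 counts (11.4 CPM) and 415 counts (19.8 CPM) in SUM159. The log2 change was 0.27 (interval 0.034 to 0.50) in MDA-MB-231 and 0.80 (interval 0.55 to 1.05) in SUM159, so its change was the larger one in SUM159. Of its 2528 exonic bases 2292 are shared with ENSG00000270299 on the same strand, a gene with 0 or 1 counts in each library, and counting in union mode gives reads in such bases to neither gene where the annotation holds both.

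NQO1 (ENSG00000181019, chromosome 16 from 69706996 to 69726668, minus strand, 6 exons) encodes the quinone reductase that is the classic readout of NRF2. It had 4673 counts (205.8 CPM) and 2715 counts (144.4 CPM) in MDA-MB-231, and 5045 counts (299 CPM) and 7788 counts (371 CPM) in SUM159. The log2 change was -0.51 (interval -0.58 to -0.44) in MDA-MB-231 and 0.31 (interval 0.26 to 0.36) in SUM159. By sign, NQO1 was thus lower after MBZ in MDA-MB-231, where the other 8 genes had positive log2 changes with intervals clear of 0. The interval of SRXN1 reached -0.016 with DESeq2 scaling. The change of NQO1 was under 1.5-fold in both lines, but in SUM159 it was 0.61 on the log2 scale with total counts, which is past 1.5-fold.

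HMOX1 (ENSG00000100292, chromosome 22 from 35380361 to 35394214, plus strand, 5 exons, with no overlapping exon) encodes heme oxygenase 1, which breaks down heme and is repressed by BACH1. It had 385 counts (17.0 CPM) and 781 counts (41.5 CPM) in MDA-MB-231, and 3274 counts (194 CPM) and 10137 counts (483 CPM) in SUM159. The log2 change was 1.29 (interval 1.12 to 1.47) in MDA-MB-231 and 1.31 (interval 1.26 to 1.37) in SUM159. The levels of the lines lay 11.9-fold apart with DMSO and 12.0-fold apart with MBZ, SUM159 being higher, while the fold change was alike, with a log2 difference between the lines of -0.022 (interval -0.21 to 0.16).

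OSGIN1 (ENSG00000140961, chromosome 16 from 83931311 to 83966332, plus strand, 6 exons) encodes a growth inhibitor induced by oxidative stress. It had 156 counts (6.87 CPM) and 406 counts (21.6 CPM) in MDA-MB-231, and 282 counts (16.7 CPM) and 552 counts (26.3 CPM) in SUM159. The log2 change was 1.65 (interval 1.38 to 1.93) in MDA-MB-231, the largest of the 9 genes there, and 0.65 (interval 0.44 to 0.86) in SUM159. Its exons share 457 bases with MLYCD on the same strand, which had 113 to 215 counts.

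**Figure D2:**
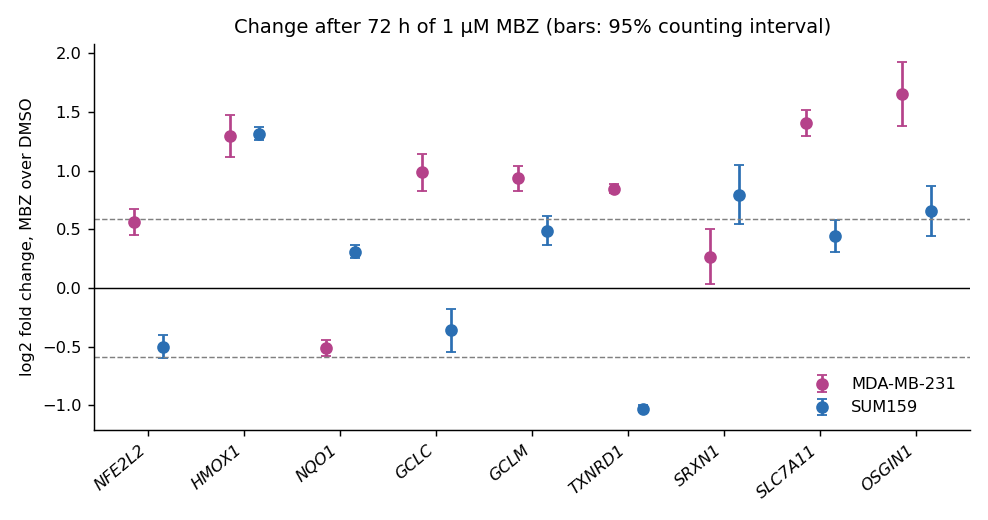
Log2 fold change of MBZ over DMSO for the 9 genes in MDA-MB-231 and SUM159, with bars for the 95% counting interval and dashed lines at 1.5-fold. HMOX1 had overlapping intervals in both lines, and NFE2L2, NQO1, GCLC and TXNRD1 lay on opposite sides of 0.

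Of the 9 genes, 4 had changes of opposite sign in the lines with both intervals clear of 0, as did 20.0% of the 13733 genes compared in both lines. With total counts 3 of the 9 did, against 19.1%, since the interval of GCLC in SUM159 then held 0. The difference of the log2 changes, MDA-MB-231 minus SUM159, was 1.87 (interval 1.82 to 1.92) for TXNRD1, 1.35 (interval 1.11 to 1.58) for GCLC, 1.06 (interval 0.92 to 1.21) for NFE2L2 and -0.82 (interval -0.91 to -0.74) for NQO1. Among the other genes it was 1.00 (interval 0.66 to 1.34) for OSGIN1, 0.96 (interval 0.78 to 1.13) for SLC7A11, 0.44 (interval 0.28 to 0.61) for GCLM and -0.53 (interval -0.86 to -0.19) for SRXN1. HMOX1 was the gene of the 9 whose interval held 0. All 9 genes kept the sign of their change in each line under the other scalings tried, and GCLC in SUM159 came nearest to 0, at -0.061 (interval -0.24 to 0.12) with total counts. These intervals cover counting error only, so the spread between cultures was not part of them.

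**Figure D3:**
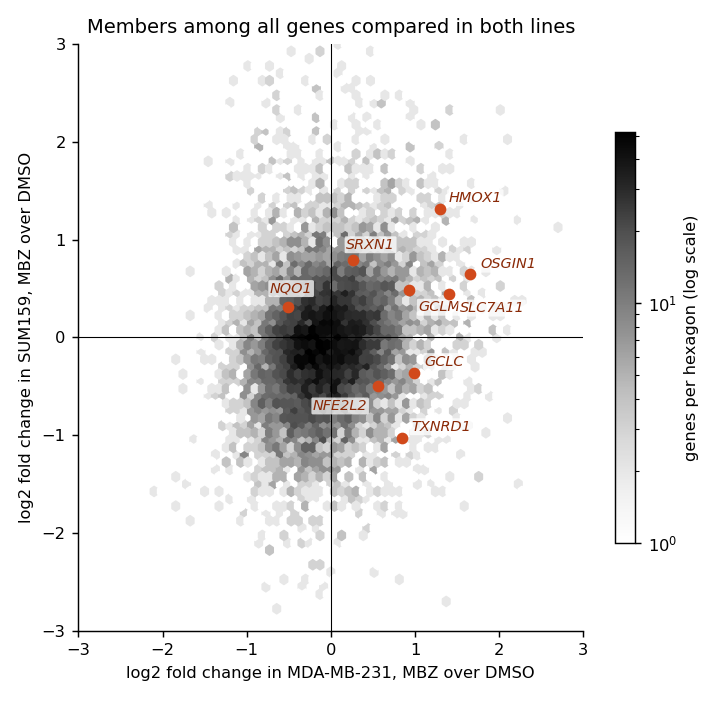
Log2 fold change in MDA-MB-231 (horizontal) against SUM159 (vertical) for the genes compared in both lines, as hexagons shaded by the number of genes, with the 9 NRF2 genes as points and genes beyond 3 on either axis not drawn. HMOX1, OSGIN1, SLC7A11, GCLM and SRXN1 lie in the upper right quadrant, NFE2L2, GCLC and TXNRD1 in the lower right and NQO1 in the upper left.

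A change shared by both lines was tested with edgeR's quasi-likelihood test. The 2 lines served as replicates in it. The spread of the test starts from how far their responses differ, but for each gene it is drawn toward values shared over all genes fitted. The SE of a gene therefore does not measure its own difference between the lines. HMOX1, whose log2 changes differed by -0.022 between the lines, had an SE of 0.30, and SLC7A11, whose changes differed by 0.96, had one of 0.33. Of the 9 genes 0 had an adjusted p under 0.05, against 0.00621% of 16100 genes. At an unadjusted p under 0.05, 4 of the 9 were higher after MBZ, against 3.91% of genes. These were HMOX1 (log2 change 1.34, SE 0.30, unadjusted p = 0.00303, adjusted p = 0.457), OSGIN1 (1.19, SE 0.40, unadjusted p = 0.0206, adjusted p = 0.609), SLC7A11 (0.96, SE 0.33, unadjusted p = 0.0246, adjusted p = 0.624) and GCLM (0.75, SE 0.29, unadjusted p = 0.0359, adjusted p = 0.661). The adjusted p of SRXN1 was 0.786 and that of GCLC 0.878, and those of NFE2L2, NQO1 and TXNRD1 lay between 0.977 and 0.987. With DESeq2's Wald test the adjusted p of HMOX1 was 0.0384, and over all alternatives it ranged from 0.0327 to 1.00.

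Levels were compared between genes per transcript length, in TPM from the canonical transcript. TXNRD1 was the highest of the 9 in 3 libraries, with 203 and 449 TPM in MDA-MB-231 (DMSO and MBZ) and 589 TPM in SUM159 with DMSO. In SUM159 with MBZ, HMOX1 was highest, at 677 TPM against 352 for TXNRD1 and 320 for NQO1. HMOX1 had 20.8 and 62.6 TPM in MDA-MB-231 and 223 TPM in SUM159 with DMSO. NQO1 had 155 and 134 TPM in MDA-MB-231, and NFE2L2 had 42.9 to 79.1 TPM over the 4 libraries. The others were GCLM (17.2 to 49.6 TPM), GCLC (11.9 to 29.0), SRXN1 (8.04 to 17.0), SLC7A11 (7.54 to 27.6) and OSGIN1 (6.81 to 29.8). The level of SRXN1 was computed over its whole length, of which 2292 bases are the shared ones named above, so it may be understated and its place in the order is not known. This order depends on the length taken, since union exon lengths, an alternative chosen after seeing the data, moved 30 of the 36 ranks, with 14975 bases for NFE2L2 in place of 2446.

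The genes whose levels over the 4 libraries were nearest to those of each of the 9 (distance of centred log2 CPM among 11141 genes) are a description over 4 libraries. Nearest to TXNRD1 were ABCA7 (distance 0.11), ZFAS1 and CALCOCO1, and nearest to SLC7A11 were GFPT1 (distance 0.090), DUSP10 and PDP1. NFE2L2 lay nearest to NUDT4 (distance 0.046), PCK2 and RWDD2B. TXNRD2, the mitochondrial thioredoxin reductase, was among the 3 genes nearest to NQO1. HMOX1 had the most distant neighbours of those given here, BMP2 (distance 0.49), ZC3H12A and DUSP8, followed by OSGIN1, with LINC00174 (distance 0.29), SGTB and SNHG12.

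Wider lists of the pathway and of ATF4 targets held 99 genes in all. In MDA-MB-231 20 of the 96 compared (20.8%) were at least 1.5-fold higher and 13 (13.5%) lower, and in SUM159 15 of 94 (16.0%) were higher and 26 (27.7%) lower. The ATF4 list gave 5 of the higher and 0 of the lower genes in MDA-MB-231, and 7 of the higher and 0 of the lower genes in SUM159. The shares of all genes were 18.3% and 15.8% in MDA-MB-231 and 21.5% and 21.7% in SUM159, and the counts of each list below are read against these. With total-count scaling the split became 33 higher and 7 lower in MDA-MB-231, and in SUM159 it turned to 25 higher and 13 lower, as the split of all genes did (29.1% and 7.57%, and 32.8% and 12.8%).

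Among the 14 regulators and partners of NRF2, MDA-MB-231 had 4 higher and 0 lower and SUM159 had 3 higher and 0 lower, with median log2 changes of 0.26 and 0.092. Total-count scaling gave 7 and 5 higher, 0 lower and medians of 0.52 and 0.39. BACH1, the repressor, had 434 and 883 counts in MDA-MB-231 (DMSO and MBZ, log2 change 1.30, interval 1.13 to 1.47) and had a log2 change of 0.58 in SUM159, and the small MAF genes had log2 changes in MDA-MB-231 and SUM159 of 1.03 and 1.17 (MAFF), 0.48 and 0.99 (MAFG) and 0.67 and 1.09 (MAFK). SQSTM1, the autophagy receptor p62 that binds KEAP1, was at 1.18 in MDA-MB-231 and 0.10 in SUM159. The repressor BACH1 and the 3 small MAF genes thus had positive log2 changes in both lines.

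Of the glutathione enzymes, 1 was higher and 5 lower of 19 in MDA-MB-231, and 2 were higher and 4 lower of 18 in SUM159 (medians -0.47 and -0.099). With total counts MDA-MB-231 had 3 higher and 2 lower, and SUM159 had 5 higher and 2 lower (medians -0.21 and 0.20). DESeq2 scaling gave 1 higher and 7 lower in MDA-MB-231 (median -0.52), where 16.7% of all genes were then higher and 17.8% lower. The 1 higher gene in MDA-MB-231 was SLC3A2. GSTP1, a glutathione transferase, had a log2 change of -1.02 in MDA-MB-231 and 0.020 in SUM159, and GSTM1 was at -1.62 in MDA-MB-231. GSTM1 has close paralogs, so its count depends on how reads that fit more than 1 of them were handled. In SUM159 GSTA4 and MGST2 were at -1.15 and -1.35.

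Of the 14 thioredoxin and peroxiredoxin genes, MDA-MB-231 had 2 higher and 2 lower, and SUM159 had 2 higher and 5 lower (medians -0.18 and -0.15). Total-count scaling gave 2 higher and 1 lower, and 4 higher and 3 lower (medians 0.084 and 0.16), and DESeq2 scaling gave 1 higher and 3 lower in MDA-MB-231 (16.7% and 17.8% of all genes). SESN2, a sestrin that NRF2 and ATF4 both induce, had a log2 change of 1.99 in MDA-MB-231 and 0.20 in SUM159. TXNIP, the inhibitor of thioredoxin, was at -1.29 in SUM159 and -0.21 in MDA-MB-231, and SESN1 was at -1.23 in SUM159.

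The NADPH supply genes, which give the electrons that TXNRD1 and NQO1 use, included no gene at least 1.5-fold higher. Of 9, 3 were lower in MDA-MB-231 and 4 in SUM159, with medians of -0.52 and -0.46. With total counts the split in MDA-MB-231 was 3 to 2 in favour of higher genes, and in SUM159 it was 0 higher and 2 lower. IDH2, a mitochondrial isocitrate dehydrogenase, had a log2 change of -1.49 in MDA-MB-231. PGLS was at -1.03 in SUM159, and the transketolase TKT was at -0.83 and -1.90 in the 2 lines.

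Of the 19 detoxification and export genes, MDA-MB-231 had 7 higher and 2 lower (median 0.16) and SUM159 had 0 higher and 11 lower (median -0.64), and the difference between the lines was not tested. Of the 7, ABCC2, AKR1C2 and AKR1B10 had 11 to 67 counts in MDA-MB-231, and the interval of AKR1B10 held 0. With total-count scaling they were 9 higher and 2 lower, and 2 higher and 5 lower. AKR1C1, an aldo-keto reductase, had 70 and 237 counts in MDA-MB-231 and 2890 and 2206 counts in SUM159 (DMSO and MBZ), with log2 changes of 2.03 and -0.71. AKR1C3 was at 0.42 and -1.17, TRIM16L at 1.31 and -1.10, and the exporter ABCC4 at 0.16 and -1.29. EPHX1, an epoxide hydrolase, was lower in both lines, at -0.95 and -1.97. The AKR1C genes are close paralogs, so their counts depend on how reads that fit more than 1 of them were handled, which was not tested. ALDH3A1, an aldehyde dehydrogenase chosen after its values were seen, had 1000 and 431 counts in MDA-MB-231 and 113 counts and 1 count in SUM159, the latter a log2 ratio of -6.95 (interval -12.45 to -4.63).

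Of the heme and iron genes, 1 of 9 was higher and 0 lower in MDA-MB-231, and 1 of 8 was higher and 1 lower in SUM159 (medians 0.075 and -0.24). With total counts 3 and 1 were higher, 0 were lower and the medians were 0.34 and 0.065, while in MDA-MB-231 DESeq2 scaling gave 1 higher and 2 lower (16.7% and 17.8% of all genes) and upper-quartile scaling 1 higher and 1 lower (18.1% and 16.0%). The ferritin light chain FTL, an NRF2 target, had 37329 and 66238 counts in MDA-MB-231 and 64482 and 85959 in SUM159, with log2 changes of 1.10 and 0.10. The heavy chain FTH1, named as its partner after its values were seen, was at 0.32 and -0.23. The annotation holds 16 pseudogenes named after FTL and 25 named after FTH1, and their part in the counts was not tested. Of 3 genes of superoxide and peroxide removal, 0 were higher and 1 was lower in each line, but in MDA-MB-231 the lower count was 0 with total counts and 2 with DESeq2 or upper-quartile scaling.

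ATF4, the factor of the integrated stress response that also activates SLC7A11, and 8 of its targets were counted as a list of 9 beside these. In MDA-MB-231 cells 5 of 9 were higher and 0 lower, with a median of 1.37, and in SUM159 7 of 9 were higher and 0 lower, with a median of 1.22. ATF3 had log2 changes of 4.11 and 2.35, DDIT3 of 2.93 and 1.40, CHAC1, which degrades glutathione, of 1.73 and 1.40, TRIB3 of 1.47 and 0.52, and the serine synthesis gene PSAT1 of 0.40 and 1.22. ATF4 itself was at 0.059 and -0.51 and VLDLR at -0.35 and 0.99, both named after their values were seen. The part of ATF4 in the change of SLC7A11 was not tested.

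**Figure D4:**
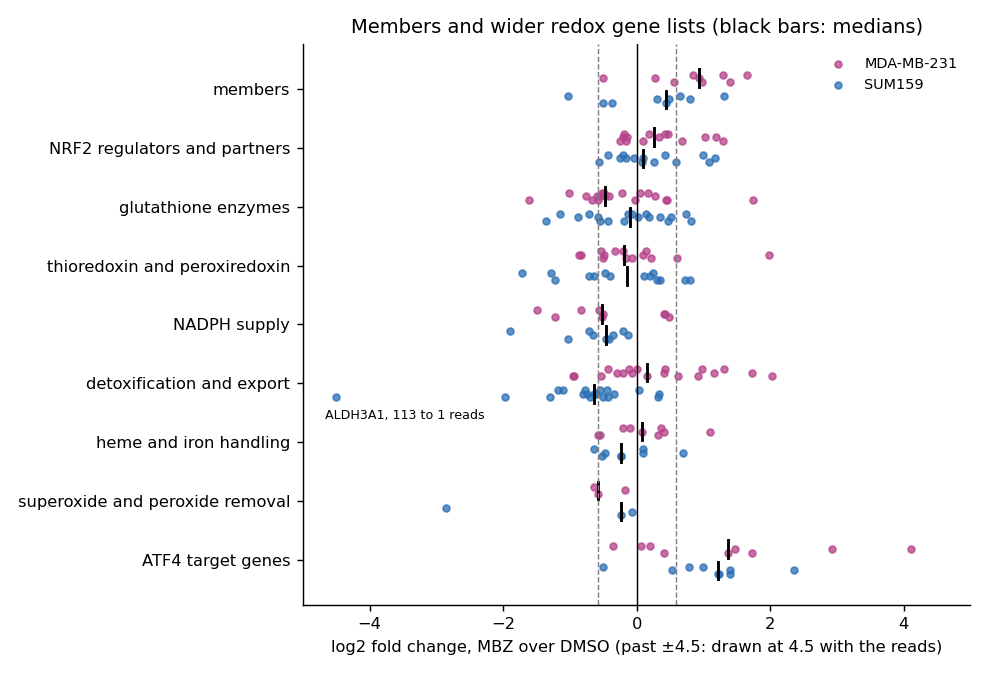
Log2 fold change of MBZ over DMSO for the 9 NRF2 genes (top) and for the genes of each wider list (ATF4 itself with its targets) in MDA-MB-231 and SUM159, with black bars for medians and dashed lines at 1.5-fold. The medians of the 9 genes (0.93 and 0.44) lie above those of the NADPH supply list (-0.52 and -0.46) and below those of the ATF4 list (1.37 and 1.22).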

How the data were processed

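RNA enriched for mRNA was sequenced from 4 samples of established cell lines. Reads were aligned by the authors to GRCh38 (STAR 2.5) and assigned to genes in union mode (HTSeq 0.6.1), and the deposited values are whole-number counts with no normalization. The submitters' processing notes also name edgeR 3.16.5. The annotation release and strand setting are not given in the sources used here. Of 58735 genes, 58207 were matched to a symbol by Ensembl identifier with GENCODE release 44 (GRCh38), from which positions, lengths and overlaps come. The table had 0 rows without a gene, and 0 columns of values were left out. Samples were grouped by the line and dose in their labels. SOD2 was the 1 of 120 list genes without a match.

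Within a line, TMM normalization was run on its 2 libraries alone in edgeR 4.0.16 (R 4.3.3), and a fold change is the difference of log2 CPM (prior count 0.125). The 95% Clopper-Pearson interval of a gene was taken on the fraction of its reads that the MBZ library held, and intervals were combined by the delta method for differences and ratios. They cover counting error only, since with 1 library per condition the spread between cultures could not enter them. Reads amplified by PCR without a molecular identifier do not count molecules either, and the intervals leave this out. Genes were compared where the mean of a line was 10 counts or more, at a fold of 1.5. The shared change was tested with edgeR's quasi-likelihood test (line and treatment, filterByExpr, TMM over 4 libraries, Benjamini-Hochberg adjustment) and also with DESeq2 1.42.0. Levels between lines used TMM over the 4 libraries. The functions were tested on simulated counts with less spread between libraries than these data have (coefficient of variation 0.323). The simulation therefore does not show how well the shared test performs here.

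Alternatives were other scalings, folds, filters and models. The 9 genes and all lists were chosen with earlier results of these data known. Named were the 9 genes, KEAP1, BACH1, MAFF, MAFG, MAFK, SLC3A2, list genes of at least 100 counts on average and a change of at least 2-fold in a line, and up to 3 nearest genes of each of the 9. TXN is named as a partner of TXNRD1, and FTH1 as a partner of FTL. Not every gene that this rule takes is reported here.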

Additional observations from a re-analysis of the deposited data

Results flagged for a closer look

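Changes of opposite sign in the lines, each with a counting interval clear of 0, were found for 8 of the 38 genes checked. The 38 were the 9 NRF2 genes and the genes of the wider lists that the naming rule above takes, nearest genes aside. Of the 13733 genes compared in both lines 20.0% had such changes, a share near that of the genes checked. Most of the wider-list genes among the 38 were taken for a change of at least 2-fold in a line, so they are not comparable with unselected genes. Wider-list genes named above for other reasons were not among the 38. Of these, ATF4, VLDLR, FTH1, TXNRD2, ABCC2 and AKR1C2 also had such changes, and TXN, ALDH3A1 and AKR1B10 did not. With total counts the interval of GCLC in SUM159 held 0, and with DESeq2 scaling that of ABCC4 in MDA-MB-231 did. The difference of the log2 changes, MDA-MB-231 minus SUM159, was 1.06 for NFE2L2, -0.82 for NQO1, 1.35 for GCLC and 1.87 for TXNRD1. It was 2.74 for AKR1C1, 2.41 for TRIM16L, 1.59 for AKR1C3 and 1.45 for ABCC4. With 1 library for each line and treatment, the difference between the lines was not tested against the spread between cultures.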

How the results depend on the processing

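All 18 log2 changes of the 9 genes (9 in each line) kept their sign under total-count, upper-quartile, DESeq2 and 4-library TMM scaling. At 2-fold, 3 of the 9 were higher in MDA-MB-231 (9.05% of all genes) and 1 in SUM159 (12.7%), and 1 was higher in SUM159 with an interval wholly past 1.5-fold (11.0%); the lower counts did not move. Total-count scaling gave 6 higher in SUM159 and medians of 1.20 in MDA-MB-231 and 0.74 in SUM159. For the shared change, DESeq2 called 1 of the 9, as did the test on every gene with at least 1 count, HMOX1 in each. Over all genes, 1 gene was called higher and 0 lower by edgeR's quasi-likelihood test (629 and 521 at an unadjusted p under 0.05), against 45 and 55 by DESeq2 and 153 and 145 on every gene with at least 1 count. The shared log2 change of NFE2L2 was 0.067 and became -0.0010 with DESeq2 and -0.030 without the line in the model, and that of NQO1 was -0.061 and became 0.081 without the line, and the cause was not tested. In the wider lists, total-count scaling gave 33 higher and 7 lower in MDA-MB-231 and 25 higher and 13 lower in SUM159, and the 2-fold threshold gave 15 higher and 4 lower in MDA-MB-231 (9.05% and 5.14% of all genes) and 7 higher and 13 lower in SUM159 (12.7% and 10.7%). No library could be left out, since each condition had 1. Depth limits the genes of the lowest counts, OSGIN1 (from 156) and SRXN1 (from 192).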
